A study of Mus musculus with 3 samples.

Results

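The cytosolic ribosomal protein genes of the mouse were described by H3K27ac, an acetylation of a histone tail found at promoters and enhancers in use, in double-negative thymocytes, the T cell precursors that carry neither CD4 nor CD8. Members were the protein-coding genes of the RefSeq annotation whose symbol is Rpl or Rps with a number and at most one further letter (a, x, y or l), together with Rplp0, Rplp1, Rplp2 and Rpsa. The kinase genes named Rps6k were left out. The rule took 81 of 21887 protein-coding genes, 50 of the large subunit and 31 of the small subunit. The cells came from the thymus of wild-type C57BL/6J mice aged 5 to 7 weeks and were sorted by the surface phenotype CD4-CD8- with CD25+ and CD44-/+. There were 2 H3K27ac replicates and 1 input sample, and the input was not analysed here. The labels do not say whether the replicates came from separate animals, so the spread between them may be technical.

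The ribosome is built of a small subunit, which reads the mRNA, and a large subunit, which joins amino acids and releases the growing chain through an exit tunnel. Each subunit holds ribosomal RNA and one copy of most of its proteins, so that the genes of both are active in nearly all cells, and dividing precursors such as thymocytes use them heavily. In mammals their mRNAs begin with a terminal oligopyrimidine tract, a C followed by further C or T, through which the mTOR kinase and the RNA-binding protein Larp1 control their translation.

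The data are 2 lists of peaks, each with a position, a fold enrichment and a −log10 q given by the authors' peak caller. Replicate 1 had 12377 peaks and replicate 2 had 9477. Their median fold was 2.17 and 2.31. Peaks that passed a q-value of 0.05 made up 27.1% of the first list and 41.0% of the second. Of 14 markers of T cell precursors, 5 had a peak at a gene end in both replicates (35.7%, against 16.8% of all protein-coding genes). They were Cd3d, Cd3e, Cd3g, Dntt and Tcf7, and Rag1, Rag2, Notch1, Gata3 and Lck had none in either. Cd3d and Cd3g shared a peak of 1954 bp in replicate 1. Folds at the Cd3 genes were only 1.05 to 1.23, with −log10 q of 2.65 to 6.78. The peaks of the replicates had 32 bp in common at Cd3e and 0 at Cd3g. None of 20 markers of later thymocytes, B cells, myeloid cells, erythroid cells or thymic stroma had one in either replicate. With peaks anywhere in the gene counted, Pecam1 had one in both replicates and Aire in 1, and 9 of the 14 precursor markers had one in both.

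Sequence at the annotated starts is shown first for the members on which the results turn. RefSeq (GRCm38.p6, the same assembly as mm10) gave a start for 61 of the 81 members. Each stretch runs 5′ to 3′ on the coding strand over the 80 bases before the start and the first 20 bases from it. Capitals mark matches to the ETS motif CCGGAAG, the YY1 motif AAGATGG, the Sp1 motif GGGCGG and the TATA box TATAAA on either strand, and runs of at least 8 C or T that reach into the bases from 5 before to 15 after the start. Among the members with wide peaks were Rpl13a (chr7:45128726-45128825, minus strand), Rpl41 (chr10:128549149-128549248, minus strand) and Rps6 (chr4:86857348-86857447, minus strand).
Rpl13a: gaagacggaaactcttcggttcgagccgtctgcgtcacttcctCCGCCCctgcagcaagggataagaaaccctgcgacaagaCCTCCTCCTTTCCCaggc
Rpl41: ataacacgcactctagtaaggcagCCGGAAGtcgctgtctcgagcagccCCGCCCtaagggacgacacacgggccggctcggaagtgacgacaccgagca
Rps6: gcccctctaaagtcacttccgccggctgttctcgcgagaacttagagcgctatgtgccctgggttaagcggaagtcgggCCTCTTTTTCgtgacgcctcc
The members with the highest folds in replicate 1 were Rpl13 (chr8:123102270-123102369, plus strand) and Rps15 (chr10:80292351-80292450, plus strand).
Rpl13: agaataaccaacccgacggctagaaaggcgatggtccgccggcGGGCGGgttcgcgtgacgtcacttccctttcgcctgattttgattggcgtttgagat
Rps15: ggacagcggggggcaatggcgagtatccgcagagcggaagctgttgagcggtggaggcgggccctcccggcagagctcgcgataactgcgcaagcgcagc
The starts of Rpl18 (chr7:45717991-45718090), Rpl19 (chr11:98026630-98026729) and Rpl22 (chr4:152325646-152325745), all on the plus strand, lay more than 1 kb inside the annotated gene and had peaks that the gene-end window missed.
Rpl18: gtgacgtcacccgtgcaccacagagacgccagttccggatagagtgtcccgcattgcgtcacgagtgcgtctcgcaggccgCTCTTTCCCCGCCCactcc
Rpl19: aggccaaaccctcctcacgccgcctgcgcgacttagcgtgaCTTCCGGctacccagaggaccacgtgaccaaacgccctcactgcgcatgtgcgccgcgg
Rpl22: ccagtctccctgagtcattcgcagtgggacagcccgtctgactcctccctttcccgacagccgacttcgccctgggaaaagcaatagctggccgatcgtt
No peak of either replicate lay within 1 kb of the starts of Rps10 (chr17:27635225-27635324, minus strand), Rps4x (chrX:102189372-102189471, minus strand) and Rpl36a (chrX:134585574-134585673, plus strand).
Rps10: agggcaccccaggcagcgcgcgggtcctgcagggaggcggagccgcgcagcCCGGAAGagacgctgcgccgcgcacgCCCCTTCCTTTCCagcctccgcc
Rps4x: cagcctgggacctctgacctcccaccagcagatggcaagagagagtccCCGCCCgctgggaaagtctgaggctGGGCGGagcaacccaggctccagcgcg
Rpl36a: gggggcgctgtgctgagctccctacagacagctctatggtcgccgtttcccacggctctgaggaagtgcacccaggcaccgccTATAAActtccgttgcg

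Pyrimidine runs were found at the starts of members with and without peaks. In the stretches above they stand at Rpl13a, Rps6, Rpl18 and Rps10, and in Rpl18 the run overlaps the Sp1 match. Of the 61 member starts, 24 (39.3%) had such a run, against 12.8% of the starts of 17492 protein-coding genes. A C stood at the first base in 32.8% of member starts and in 13.7% of all starts. These shares rest on the first listed start, which was not checked against the ends of RNAs. A start without a run therefore does not show that the mRNA lacks the tract. In the stretch of Rpl13, for example, a run of C and T ends shortly before the searched bases. Within 250 bases before to 50 after the start, the ETS motif was present at 39.3% of member starts and 11.9% of all starts, the YY1 motif at 13.1% and 6.37%, the Sp1 motif at 57.4% and 46.3%, and the TATA box at 9.84% and 13.3%. The 44 members with a peak near the start in both replicates held the ETS motif in 16 cases and the pyrimidine run in 18. The other 17 members, with such a peak in 1 replicate or in none, held them in 8 and 6 cases. Those with none were 8, among them the paralogs Rpl3l, Rpl10l, Rpl32l, Rpl39l and Rps27l. The members' windows had a median of 21 CpG dinucleotides, against 13 over all genes. Set against the 3180 genes with a peak near the start in both replicates, the 44 such members had fewer CpG dinucleotides (median 22 against 24) and a lower share with the Sp1 motif (59.1% against 67.7%). The ETS motif was present at 36.4% of these members and 22.7% of these genes, and the pyrimidine run at 40.9% and 12.5%. A match describes the letters of a window and was not linked to binding of any factor.

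Most ribosomal protein genes had a listed H3K27ac peak, though few had one with a q-value of at most 0.05 in both replicates (9 of 81, 11.1%, against 2.64% of all protein-coding genes). A peak within 1 kb of either annotated end of the gene, called a gene-end peak below, was found in both replicates at 53 of the 81 members (65.4%), against 16.8% of all protein-coding genes. Replicate 1 had such peaks at 60 members (74.1%, against 25.1% of all genes) and replicate 2 at 61 (75.3%, against 22.2%). In 15 members the peak was in 1 replicate only (18.5%, against 13.8% of all genes), and 13 had none in either (16.0%, against 69.5% of all genes). The peaks of the replicates overlapped each other at 51 of the 53, with Rpl3 and Rpl14 as the exceptions, and at 3540 of the 3674 genes over all protein-coding genes. With 1 group of samples and no analysed input, no test of these shares was made.

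**Figure D1:**
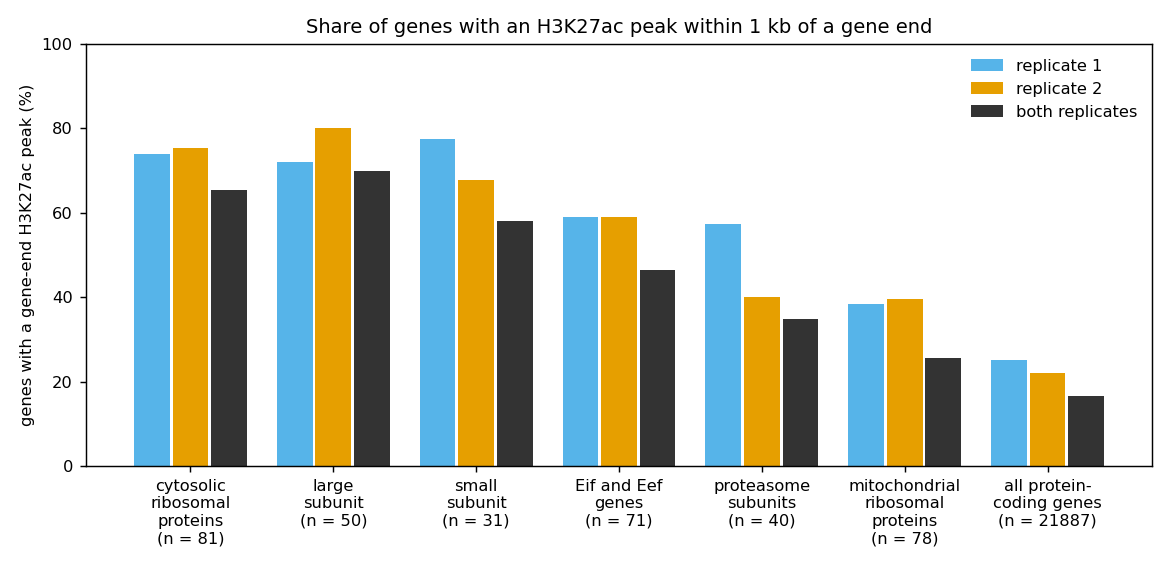
Share of genes with an H3K27ac peak within 1 kb of a gene end (y axis, percent) in replicate 1, replicate 2 and both, for ribosomal protein genes, their subunits, 3 other gene families and all protein-coding genes (x axis). The bars for both replicates stand at 65.4% for cytosolic ribosomal proteins and at 16.8% for all genes.

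Other families of protein synthesis and turnover lay between the ribosomal proteins and all genes. Genes with a symbol that starts with Eif or Eef and a number, mostly initiation and elongation factors of translation, had gene-end peaks in both replicates in 33 of 71 cases (46.5%). Subunits of the proteasome, which degrades proteins, had them in 14 of 40 cases (35.0%). Proteins of the mitochondrial ribosome, which is encoded by other genes, had them in 20 of 78 cases (25.6%). These shares are given side by side, and their differences were not tested.

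The order of the subunits depended on the replicate and on the peaks counted. Gene-end peaks in both replicates were found at 35 of 50 large subunit genes (70.0%) and at 18 of 31 small subunit genes (58.1%). In replicate 1 alone the large subunit was lower, with 36 of 50 genes against 77.4% of the small subunit. In replicate 2 alone it was higher, with 40 of 50 genes against 67.7%. Peaks in 1 replicate only were found at 6 large and 9 small subunit genes. No peak in either replicate was found at 9 large and 4 small subunit genes. The difference between subunits thus had opposite signs in the 2 replicates. With both replicates required, the large subunit was below the small subunit when only peaks with q of at most 0.05 were counted (5 of 50 genes against 4 of 31). The same held when replicate 1 was cut to its 10000 peaks of smallest p (27 of 50 against 17 of 31). Replicate 2, with 9477 peaks, was kept whole in that setting.

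Peaks at ribosomal protein genes were of ordinary width. For each member the widest gene-end peak was taken in each replicate. The median was 734 bp in replicate 1, against 797 bp over all genes with a gene-end peak, and 868 bp in replicate 2, against 702.5 bp. The order was thus not the same in the replicates. Large subunit genes had medians of 698.5 bp and 875.5 bp, and small subunit genes had 756 bp and 837 bp. The quartiles of the members were 497 and 1030 bp in replicate 1 and 508 and 1126 bp in replicate 2. The narrowest peaks of the members were of 278 bp in replicate 1, which is also the narrowest at any gene, and of 240 bp in replicate 2.

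Rpl13a, a large subunit protein that human myeloid cells also use in translational silencing, had the widest stretch covered by both replicates. Its peak spanned 2357 bp in replicate 1 (chr7:45127492-45129848) and 2526 bp in replicate 2 (chr7:45126950-45129475), with 1984 bp in common. At Rpl4, which lines the exit tunnel, the peaks were of 1609 bp and 2639 bp, with 1960 bp in common. At Rpl41, which encodes a very short basic peptide of the large subunit, they were of 1975 bp and 2072 bp and ran past the end of the gene, which is 1059 bp long, beginning 118 bp after the start in replicate 1 and 47 bp before it in replicate 2. Then followed Rps19 (1223 bp in common), Rps28 (1188 bp), Rpl7 (1047 bp), Rps6 (1042 bp), Rps14 (999 bp), Rpl21 (910 bp) and Rpl15 (888 bp). Rps6 is the target of the S6 kinases downstream of mTOR, and loss of one RPS14 copy underlies the anaemia of the human 5q deletion. Over the 51 members with overlap, the median in common was 541 bp, against 553.5 bp over all genes with overlap.

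Single genes differed in width between replicates. Rpl12, which forms the base of the stalk, had a peak of 2049 bp in replicate 1 and of 354 bp in replicate 2. Rpl7a, of the large subunit, had 375 bp and 1825 bp. Of the 53 members with peaks in both replicates, 30 had widths within 1.5 times of each other, against 1858 of 3674 over all genes. Across these 53 genes Spearman's rho of width between replicates was 0.377, against 0.426 across all 3674 genes. The points come from the same 2 libraries.

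**Figure D2:**
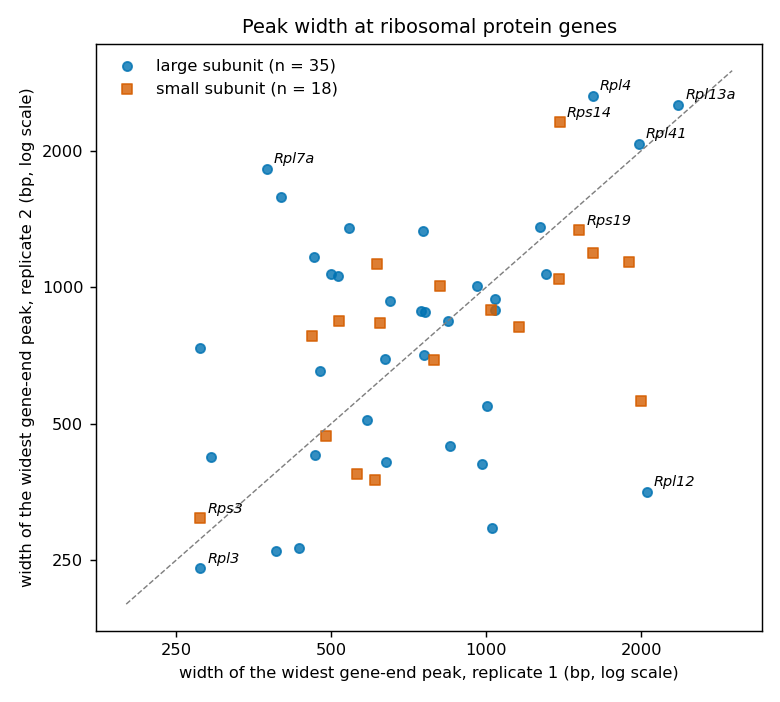
Width of the widest gene-end peak of each ribosomal protein gene with a peak in both replicates, in replicate 1 (x axis) and replicate 2 (y axis), in bp on log scales; circles are the 35 large and squares the 18 small subunit genes. The points scatter on both sides of the dashed line of equal width, with Rpl13a, Rpl41 and Rpl4 at the wide end and Rpl12 and Rpl7a far from the line.

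Most peaks were centred downstream of the annotated start. Peaks within 1 kb of any annotated start were taken, and positions were measured from the first listed start, also in genes with several. The centre of the widest peak near the start was a median of 311.5 bp downstream in replicate 1 (48 members) and 285.5 bp in replicate 2 (49 members). Over all genes the medians were 186.5 bp and 160 bp. Centres lay downstream at 36 of 48 members in replicate 1, against 68.0% of all genes. In replicate 2 they did so at 43 of 49 members (87.8%), against 66.8% of all genes. The peak covered the start itself at 28 members in each replicate (58.3% and 57.1%), close to the shares over all genes (57.6% and 58.9%). It began downstream of the start at 19 members in replicate 1 (39.6%, against 33.2% of all genes) and 20 in replicate 2 (40.8%, against 32.4%). Rpl13 and Rps15 are examples of peaks over the first part of the gene, at 125 to 884 bp and −31 to 758 bp from the start in replicate 1. Rpl10 was the exception, with a peak wholly upstream in both replicates, from −1003 to −21 bp in replicate 1 and from −558 to −151 bp in replicate 2.

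**Figure D3:**
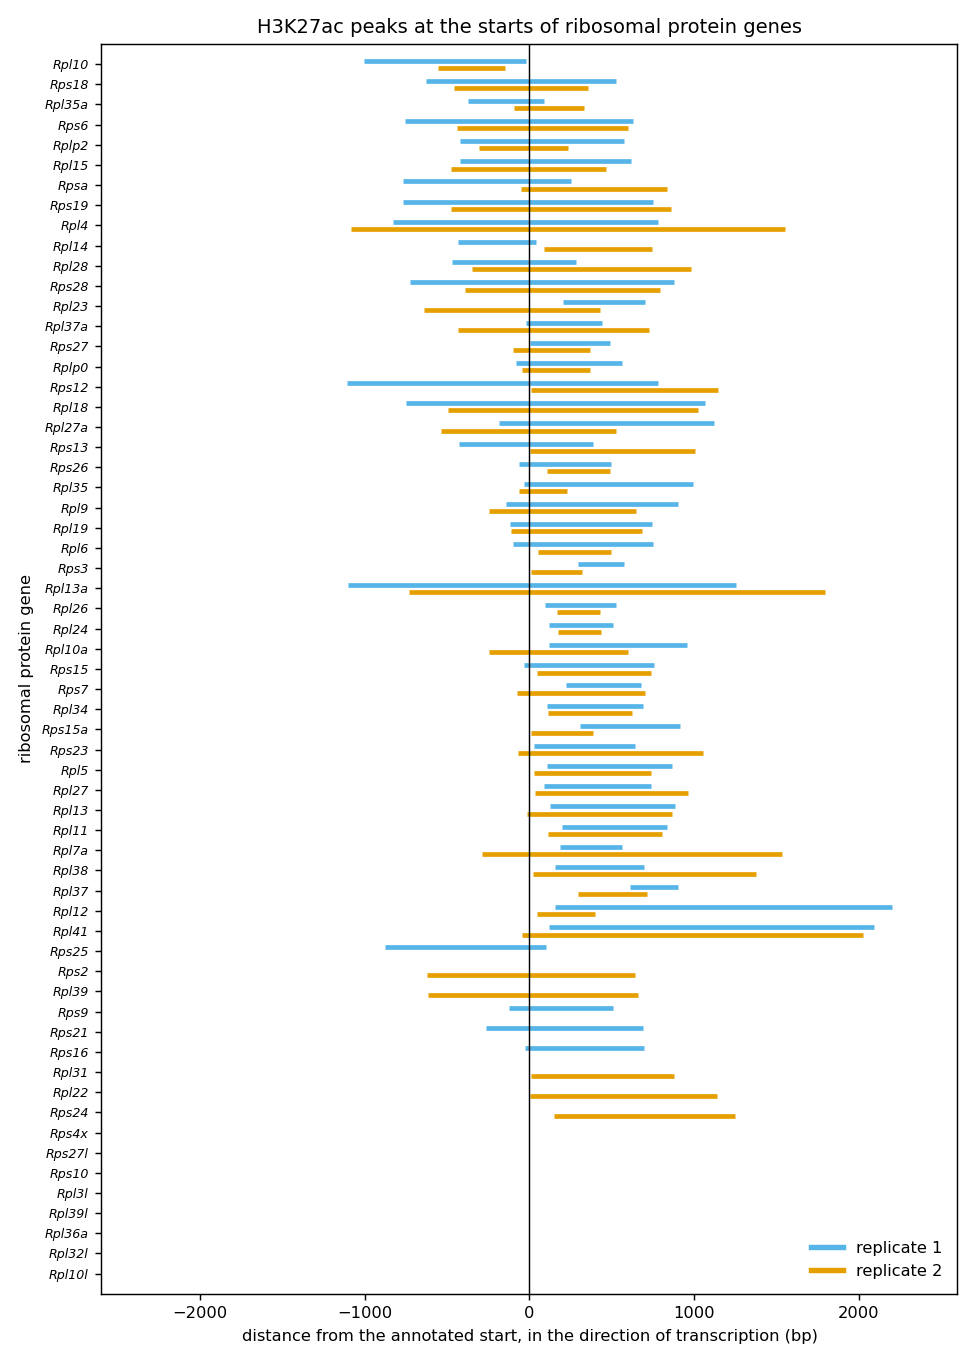
Extent of the widest H3K27ac peak near an annotated start of each ribosomal protein gene with a RefSeq start (rows), in bp from the first listed start in the direction of transcription (x axis), for replicate 1 and replicate 2. Most bars are centred to the right of the start at 0, those of Rpl10 lie to the left, and 8 genes at the bottom have no bar.

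The median height of the peaks was close to that over all genes. The median fold of the members was 2.16 in replicate 1, the same as over all genes with a gene-end peak (2.16), and 2.23 in replicate 2, against 2.33. A q-value of at most 0.05 was reached by 13 of the 60 members with a peak in replicate 1 (21.7%, against 1485 of all 5495 such genes). In replicate 2 it was reached by 25 of 61 (41.0%, against 43.6%). Among the 9 members with peaks of that q-value in both replicates were Rpl4, Rpl9, Rpl10a, Rpl29 and Rpl36 of the large subunit and Rps3, Rps15 and Rps15a of the small subunit.

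Rps15, which sits near the decoding site of the small subunit, was among the tallest in both replicates, with a fold of 5.27 and a −log10 q of 6.00 in replicate 1 and a fold of 4.43 and a −log10 q of 4.98 in replicate 2. Rpl13 had the highest fold of the members in replicate 1 (5.64, −log10 q 7.81) and an ordinary one in replicate 2 (2.5, −log10 q 1.24). Rpl36 had folds of 3.27 and 4.11. Rps15a and Rpl7 completed the 5 highest of replicate 1, with folds of 3.25 and 3.11 there and 2.71 and 2.51 in replicate 2. Rps19, Rpl32 and Rps6 were among the 5 highest of replicate 2, with folds of 4.08, 4.06 and 3.63 there and 2.28, 1.99 and 1.96 in replicate 1. Across the 53 members Spearman's rho of fold was 0.374, against 0.224 across all 3674 genes. Without chromosomes 6, 9, 14 and 17, rho was 0.258 across 43 members.

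On chromosomes 6, 9, 14 and 17 lower folds came with higher −log10 q than elsewhere, both at members and over all genes. Of the 17 members there, 12 had a gene-end peak in replicate 1 and 11 in replicate 2, with median folds of 1.95 and 1.33. Of the 64 members elsewhere, 48 and 50 had one, with median folds of 2.20 and 2.31. The median −log10 q was nevertheless higher on chromosomes 6, 9, 14 and 17, at 1.13 and 4.26 against 0.785 and 1.05. Rps25 had a fold of only 1.48 with a −log10 q of 18.4 in replicate 1, and Rpl10a had folds of 1.90 and 1.33 with −log10 q of 14.3 and 10.7. Rpl32, on chromosome 6, had both a high fold (4.06) and a high −log10 q (16.4) in replicate 2. Of the 9 members that passed the q-value in both replicates, 4 lie on these chromosomes. Over all protein-coding genes, 7.29% on these chromosomes and 1.52% elsewhere had such peaks in both replicates. Gene-end peaks in both replicates were found at 10 of the 17 members (58.8%) and at 43 of the 64 others (67.2%).

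**Figure D4:**
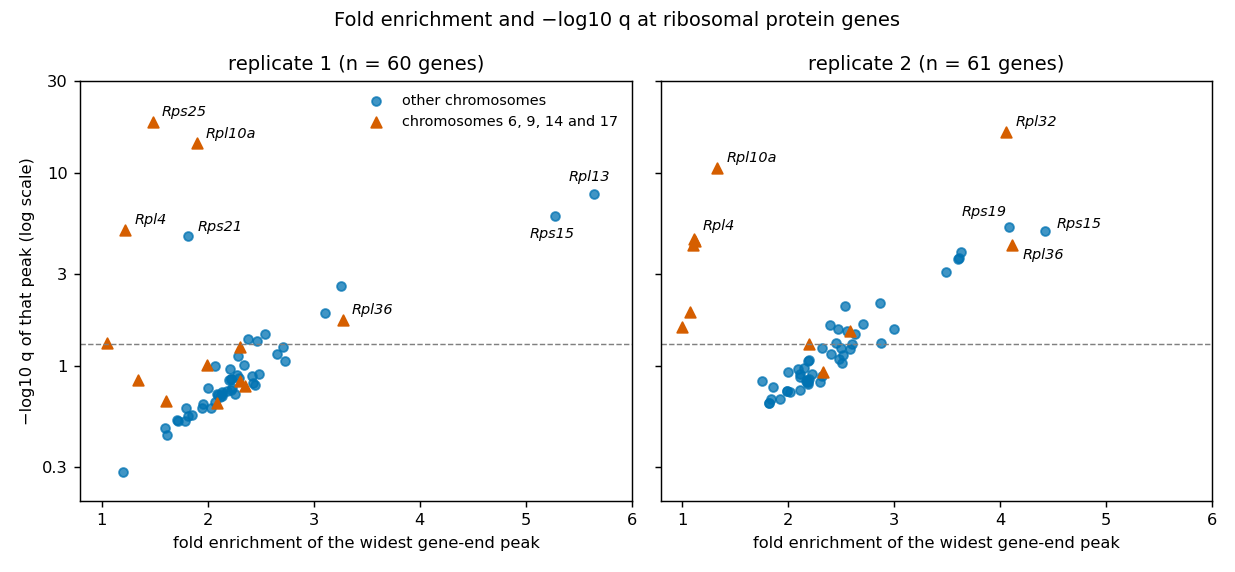
Fold enrichment (x axis) and −log10 q on a log scale (y axis) of the widest gene-end peak of each ribosomal protein gene in replicate 1 (left) and replicate 2 (right); the dashed line marks a q-value of 0.05. Triangles, genes on chromosomes 6, 9, 14 and 17, include low folds with high −log10 q such as Rps25 in replicate 1 and Rpl10a in both, and Rps15 stands at the right in both panels.

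By place in the ribosome, peaks were found in each group. The stalk recruits the translation factors. Its genes Rplp0, Rplp2 and Rpl12 had gene-end peaks in both replicates, and Rplp1 had none. At Rplp0 the widest peaks were of 640 bp and 411 bp with folds of 2.34 and 3.0. Rpl5 and Rpl11, which bind the 5S RNA and, when free, the p53 regulator Mdm2, both had peaks in both replicates. Those of Rpl5 were of 757 bp and 710 bp with folds of 1.94 and 1.84. Those of Rpl11 were of 635 bp and 695 bp with folds of 1.21 and 2.15, and the −log10 q of 0.282 in replicate 1 was the lowest among the members.

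Around the exit tunnel, gene-end peaks in both replicates were found at Rpl4, Rpl26 and Rpl35, 3 of 8 genes. Rpl19 and Rpl17 had peaks of both replicates inside the gene. Rpl31 and Rpl39 had a peak in replicate 2 alone, and Rpl23a had no peak in or near the gene. Of 13 genes of the small subunit head, 8 had gene-end peaks in both replicates, among them Rps3, Rps12 and Rps18. Rps16, Rps20 and Rps25 had one in replicate 1 alone, Rps27a, which is made as a fusion with ubiquitin, in replicate 2 alone, and Rps10 in neither.

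Some members without gene-end peaks in both replicates were acetylated at a start inside the annotated gene. Annotated starts lay more than 1 kb from both gene ends in 5 members, Rpl18, Rpl19, Rpl22, Rps2 and Rps27l. Peaks lay near the start in both replicates at Rpl18 and Rpl19, in replicate 2 alone at Rpl22 and Rps2, and in neither at Rps27l. At Rpl19 the peaks of replicate 1 (chr11:98026589-98027456, fold 3.38) and replicate 2 (chr11:98026599-98027392, fold 2.42) both covered the start. At Rpl18 the peaks of 1819 bp (chr7:45717319-45719137) and 1515 bp (chr7:45717578-45719092) did so too. Counting peaks within 1 kb of an annotated start, 44 of the 61 members with a RefSeq start had one in both replicates (72.1%), against 18.2% of 17492 genes. By subunit these were 30 of 38 (78.9%) and 14 of 23 (60.9%).

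A peak anywhere from 1 kb before to 1 kb after the gene was found in both replicates at 56 of 81 members (69.1%, against 22% of all genes), the additional genes being Rpl17, Rpl18 and Rpl19. Rpl17, for which no start was available, had peaks of 482 bp and 808 bp inside the gene, with folds of 1.85 and 3.93. Rps2 had one peak, in replicate 2, which covered its start (chr17:24719440-24720704, fold 1.75, −log10 q 12.8). Rpl22 had a peak in replicate 2 from 3 to 1138 bp downstream of its start (fold 2.29, −log10 q 0.937).

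No peak in or within 1 kb of the gene was found in either replicate at 9 of the 81 members, against 12920 of the 21887 genes over all. They were Rps4x and Rpl36a on the X chromosome, Rps10, Rplp1 and Rpl23a, and the paralogs Rpl10l, Rpl32l, Rpl39l and Rps27l. The nearest peaks to Rps10 lay 6779 bp (replicate 1) and 6488 bp (replicate 2) from its ends, and those to Rps4x lay 65178 bp and 544314 bp away. Absence from a peak list does not show absence of acetylation, since the files give no signal outside peaks. On the X chromosome 1 of 4 members, Rpl10, had gene-end peaks in both replicates, where 5.49% of all X-linked genes had them. On the autosomes 52 of 77 members did.

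The members with a gene-end peak in 1 replicate only were split nearly evenly. Those of replicate 1 were 7, 6 of them of the small subunit, and included Rps9, Rps16, Rps20, Rps21, Rps25 and Rpl3l. Those of replicate 2 were 8, 5 of them of the large subunit, and included Rpl8, Rpl18, Rpl30, Rpl31, Rpl39, Rps24 and Rps27a. Rps21 had a −log10 q of 4.71 in replicate 1, and the peak of Rps24 in replicate 2 had a fold of 1.08.

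The 5 paralogs that the symbol rule took differed from the genes they resemble. Rpl3l, made in striated muscle, and Rpl10l and Rpl39l, made in testis, are variants of large subunit proteins. Rps27l is a p53 target, and Rpl32l is listed as a gene like Rpl32. None of these 5 had a gene-end peak in both replicates. Rpl3l had a peak of 323 bp in replicate 1, beyond its 3′ end and within 1 kb of an end of Msrb1. Of the matching genes Rpl3, Rpl10, Rpl32, Rpl39 and Rps27, 4 had peaks in both replicates, and Rpl39 had one in replicate 2. The peaks of Rpl3 were narrow, of 278 bp and 240 bp, and did not overlap. Without the 5 paralogs, 53 of 76 members (69.7%) had gene-end peaks in both replicates.

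Most of the ribosomal genes whose symbols the rule did not take had peaks as well. Fau encodes a ribosomal protein fused to a ubiquitin-like sequence, Rps3a1 encodes a core protein of the small subunit, and Rack1 a scaffold on its head. All of these had gene-end peaks in both replicates, as did Rpl7l1 and Rpl36al. At Rack1 the peaks were of 2066 bp and 826 bp with folds of 2.39 and 3.17. Rpl22l1, Rps27rt and Rps19bp1 had none, so that 6 of 9 genes had peaks in both, against 16.8% of all protein-coding genes. The peaks of the replicates overlapped at 5 of the 9. Pairs with these genes did not follow the pattern of the paralogs above. Rpl22 and its paralog Rpl22l1 both lacked a gene-end peak in either list. Rpl7 and Rpl7l1 both had them in both replicates, and Rpl36al had them where Rpl36a had none.

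Members tied to T cells (3 of 4) or to anaemia (7 of 9) had gene-end peaks in both replicates, beside 53 of all 81 members, and these small lists were not tested. In mice, loss of Rpl22 stops development of alpha-beta T cells at the double-negative stage, and RPL5, RPL10, RPL11 and RPL22 are mutated or deleted in human T cell leukaemia or other blood cancers. Rpl5, Rpl10 and Rpl11 had gene-end peaks in both replicates, and Rpl22 had the replicate 2 peak at its inner start. Of 9 genes mutated in Diamond-Blackfan anaemia, a human failure of red cell production, 7 had gene-end peaks in both replicates. Among them Rps19 had peaks of 1515 bp and 1333 bp with folds of 2.28 and 4.08. Rps7 had 458 bp and 781 bp, Rps26 had 562 bp and 387 bp, and Rpl35a had 464 bp and 426 bp. Rps24 had a peak in replicate 2 alone and Rps10 in neither.

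Peaks of some members also lay near other genes. Of the 68 members with a gene-end peak in at least 1 replicate (84.0%, against 30.5% of all genes), 21 had an end of another coding gene within 1 kb of the peak. Peaks in both replicates were found at 16 of these 21 and at 37 of the other 47. Among the widest examples were Rpl4 with Snapc5 and Zwilch, and Rpl41 with Zc3h10. The peak of Rps25, from −878 to 103 bp of its start, lay mainly on the side of Trappc4. Which gene such a peak belongs to was not tested. No count of neighbours over all genes is given, so 21 of 68 does not show a trait of the members.

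Some of the genes that build ribosomes or control ribosomal protein synthesis had gene-end peaks in both replicates. Of 25 assembly genes, 10 had gene-end peaks in both replicates, among them Ncl (nucleolin), Fbl (fibrillarin, which methylates ribosomal RNA), Nop56 and Nop58. Nop56 had folds of 2.24 and 4.55. Dkc1, Nhp2 and Nop10, parts of the particle that makes pseudouridine, had none, while Gar1 of the same particle had peaks in both. Of 19 genes of control, 10 had gene-end peaks in both replicates (52.6%, against 16.8% of all genes). Both S6 kinases were among these, Rps6kb1 with folds of 2.33 and 5.23 and Rps6kb2 with 4.43 and 3.19. So were Mtor, Myc, Mdm2, Trp53 and the factors Yy1, Sp1 and Gabpa, whose motifs or those of whose family were searched above. Yy1 had the widest peaks of this list, of 3439 bp and 2758 bp. Larp1 had no gene-end peak and a peak at an annotated start in both replicates.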

How the data were processed

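H3K27ac was measured by chromatin immunoprecipitation and sequencing, after a first capture with an antibody against histone H3, per the labels' protocols. The submitters' processing notes name Bowtie2, the build mm10 and MACS 1.4.2. The lists have the layout that MACS2 writes, so the version of the caller is uncertain. The peak names show 1 library each, after duplicate removal. No source used here states the cutoff. The authors deposited, per peak, a fold (a ratio), a −log10 p, a −log10 q and a score, which is 10 times the −log10 q; they served only to describe, rank or filter peaks. Read counts are not among the deposited values. The depth is therefore unknown and no interval is given.

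Peaks on assembled chromosomes were read with 1-based coordinates. Genes came from RefSeq (GRCm38.p6), once per symbol. A gene-end peak overlapped the window of 1 kb on either side of an annotated end, and per gene the widest was described. Motifs were counted at the first listed start of each gene, and peak positions were measured from it. No test was made, since there is 1 group. The members and lists were chosen with earlier results of these data known. Genes were named by rule (members with peaks in no or 1 replicate, the 10 with most bp in common, the 5 highest folds per replicate, paralogs, disease genes, neighbours); other examples were chosen after their values were seen. Alternatives were other windows, starts alone, stricter q-values, the 10000 peaks of smallest p, single replicates, overlap between replicates, and subsets of chromosomes and members; a window over the gene body was added after seeing the data. Overlap code was tested on simulated data. Computations used Python 3.11.15, pandas 2.3.3, numpy 2.4.6 and matplotlib 3.10.9. Single values of a few members and list genes are not reported here; the counts include them.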

Additional observations from a re-analysis of the deposited data

How the results depend on the processing

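The count of members with gene-end peaks in both replicates (53) depended on the q-value and stayed within 1.5 times under the other alternatives. With q of at most 0.05 it was 9, of which 5 large and 4 small subunit genes. With q of at most 1e-05 it was 2 (2.47% of members, against 0.731% of all genes), of which 2 large and 0 small subunit genes. They were Rpl4 (folds of 1.23 and 1.11) and Rpl10a (folds of 1.90 and 1.33). Both lie on chromosomes where low folds came with high −log10 q, 9 and 17. The median width, 814 bp in the main setting, was then 929 bp. Fewer peaks enter at these settings by construction. The cut to 10000 peaks of smallest p changed replicate 1 alone, since replicate 2 had only 9477 peaks. With it the count was 44 (54.3%, against 14.4% of all genes), 27 large and 17 small subunit genes. Windows of 0.5 kb and 2.5 kb gave 49 (without Rpl29, Rpl36, Rpl37 and Rpl38) and 55. Leaving out a replicate gave 60 to 61 members, 36 to 40 large and 21 to 24 small subunit genes, and median widths of 734 to 868 bp. A share of large subunit genes below that of small subunit genes was found without replicate 2, with the 10000 peaks, with q of at most 0.05 and with a peak in at least 1 replicate. No paired analysis was possible because there is 1 group of samples. The unknown depth limits what an absent peak can show.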

Other observations

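Pseudogene copies of ribosomal protein genes, which are numerous and resemble the spliced mRNAs, had nearly no peaks, and annotated pseudogenes of all kinds had few. Of 318 annotated pseudogenes with a symbol that starts with Rpl or Rps and ends in ps and a number, 0 had a gene-end peak in both replicates, and 1 (Rps13-ps1, on chromosome 8) had one in replicate 1. Over all 10429 annotated pseudogenes, 61 (0.585%) had peaks in both replicates. How the aligner placed reads that match several copies is not given in the sources used here.

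Small nucleolar RNA genes lie inside 29 of the 81 members, 58 such genes in all and up to 5 in 1 member (Rpl4). Gene-end peaks in both replicates were found at 20 of these 29 hosts and at 33 of the 52 other members (63.5%). Median widths were 760 bp and 887 bp in the hosts (replicates 1 and 2) and 636 bp and 839.5 bp in the others. Both patterns were looked at after other results were known and were not tested.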
